A study of Homo sapiens with 3 samples.

Results

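The genes described here are 10 transcriptional outputs and feedback regulators of the ERK pathway: the phosphatase genes DUSP4, DUSP5 and DUSP6, the inhibitor genes SPRY2, SPRY4, SPRED1 and SPRED2, the transcription factor genes ETV4 and ETV5, and PHLDA1. They were measured in HCT116, a human colorectal carcinoma cell line, on 3 single-colour Affymetrix arrays, with the question of which transcripts depend on UHRF1. UHRF1 is a chromatin protein that binds hemimethylated DNA and is required to maintain DNA methylation. Cells carried UHRF1 shRNA-2 (1 array, called hairpin 2), UHRF1 shRNA-5 (1 array, called hairpin 5) or a scrambled shRNA as control (1 array). All were infected with lentivirus and collected after 6 days of puromycin, so the control shares the infection, the drug and the period of selection. The labels describe neither clones nor separate cultures. Members were all probe sets that the platform annotation assigns to exactly 1 of the 10 symbols, with no filter on expression, which gave 28 of the 54613 probe sets in the table.

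ERK is the last kinase of the cascade that runs from growth factor receptors through RAS, RAF and MEK. Active ERK induces genes that turn its own signal down. DUSP phosphatases remove the activating phosphates from ERK, and Sprouty and SPRED proteins act further up, on RAS and RAF. ETV4 and ETV5 are ETS-family transcription factors whose transcripts rise with ERK activity, and PHLDA1, a pleckstrin homology-like domain protein, is induced along with them. Because these transcripts are short-lived and follow ERK activity closely, they are widely read as a measure of pathway output in tumour cells.

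UHRF1 itself read 6.20 with hairpin 2 and 6.67 with hairpin 5, against 8.54 with the scrambled hairpin, in log2 units as all levels below. The array medians were 2.98 for hairpin 2, 3.04 for hairpin 5 and 3.002 for the scrambled control, and Pearson's r across probe sets lay between 0.987 and 0.989 for the 3 pairs of arrays. Of 10 colon epithelial markers fixed for the check, EPCAM averaged 10.10, KRT18 12.30 and KRT19 11.80. In contrast, CDH17 (2.56) lay below the array medians and VIL1 (3.12) only slightly above them. The leukocyte markers lay between 2.61 and 3.02 on average. IFIT1, an interferon-induced gene, read 10.01 with hairpin 2 and 5.41 with hairpin 5, against 3.22 in the control. The table has no detection calls, so a level near those of CDH17, VIL1 and the leukocyte markers may be background. With 3 arrays in all, the precision of every value is limited by their number.

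The 10 genes had no common direction on the hairpin arrays. The median difference from the control over the 28 probe sets was 0.13 with hairpin 2 and −0.14 with hairpin 5, beside −0.01 and 0.01 over all 54613 probe sets. With both hairpins 8 probe sets were lower, where 30.8% of all probe sets were, and 7 were higher, where 31.7% were. Another 12 were higher with hairpin 2 and lower with hairpin 5, an order found in 15.9% of all probe sets, and 1 had the opposite order, found in 20.2%. The 12 came from DUSP4 (3 probe sets), DUSP6 (3), PHLDA1 (4), SPRED1 (1) and SPRED2 (1). All 12 were among the 25 members at or above the 40th percentile in mean level, and 18.9% of all probe sets at that level had this order. With each gene taken at its probe set of highest mean, 3 of the 10 genes had it, beside 21.7% of all genes at that level. Taken singly, 9 of the 28 were lower with hairpin 2 (51.4% of all probe sets) and 20 with hairpin 5 (46.9%). Probe sets of 1 gene measure the same RNA sample and are not replicates.

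**Figure D1:**
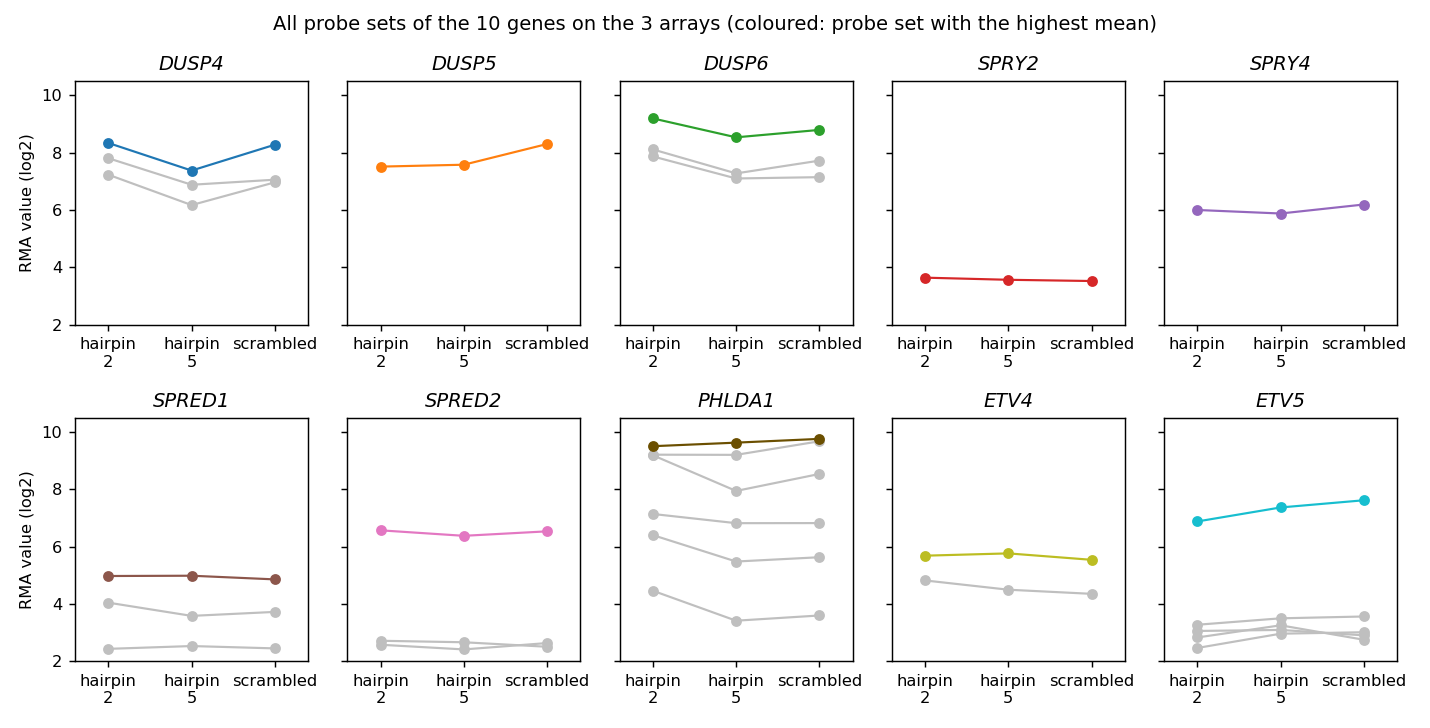
RMA value (log2, vertical axis) of each of the 28 probe sets with hairpin 2, hairpin 5 and the scrambled control (1 array each), with a panel per gene; a line joins the values of 1 probe set and marks no order. DUSP5 was lower on both hairpin arrays, while every DUSP4 and DUSP6 probe set was highest with hairpin 2 and lowest with hairpin 5.

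No member passed the test. In limma's fit of both hairpins against the control, with Benjamini-Hochberg adjustment over all probe sets, 0 of 28 member probe sets and 0% of all probe sets had an adjusted p under 0.05. The adjusted p was 0.9998 for each member. At an unadjusted p under 0.05 there were 2 member probe sets, 1 each of DUSP5 and PHLDA1, both lower, where 2.92% of all probe sets reached that level. The fit treats the hairpins as 2 replicates with 1 residual degree of freedom and takes the spread of the lone control to be like theirs. In simulated arrays of this size it recovered 0% of 200 probe sets changed by −1 and 63.5% of those changed by −2, and every member differed by less than 1. The simulated noise was normal, with a robust spread for each range of levels. It therefore lacked the widest gaps between the real hairpin arrays, and the recovery may be overstated. UHRF1 itself, with a mean difference of −2.11, did not pass in the real fit.

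Among the phosphatases, DUSP5 was the gene that differed the same way on both arrays. DUSP5 is a nuclear phosphatase that acts on ERK and holds it in the nucleus. Its only probe set (209457_at) read 7.52 with hairpin 2 and 7.58 with hairpin 5, against 8.30 in the control. Both hairpin arrays were below the control, 1.73-fold with hairpin 2 and 1.65-fold with hairpin 5. Averaged over the hairpins, DUSP5 differed by −0.76 ± 0.05 (SD, n = 2 hairpins), with a 95% interval from the limma fit of −1.19 to −0.32, an unadjusted p of 0.00941 and an adjusted p of 0.9998. DUSP5 was the 1 member at least 1.5-fold lower with both hairpins, as were 0.699% of all probe sets, and none was 2-fold lower or 2-fold higher with both, as were 0.103% and 0.0586%. By its smaller difference of the pair, it ranked 176 from the lowest of 54613 probe sets.

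DUSP4 and DUSP6 had the same order of arrays on every probe set. DUSP4 is the inducible phosphatase of the nucleus, with activity toward ERK and other MAP kinases. DUSP4 probe set 204015_s_at read 8.34 with hairpin 2 and 7.38 with hairpin 5, against 8.28 in the control. On 204014_at the values were 7.81 with hairpin 2 and 6.88 with hairpin 5, against 7.06, and on 226034_at they were 7.23 and 6.17, against 6.97. The probe sets placed the change differently: hairpin 2 was level with the control on the first (0.06) and above it on the second (0.75), while hairpin 5 differed from the control by −0.90 and −0.18. The gap between the hairpin arrays was nearly the same on all 3, at 0.96, 0.93 and 1.06, or 1.95-fold, 1.90-fold and 2.08-fold higher with hairpin 2.

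DUSP6 is the cytoplasmic phosphatase that is selective for ERK and among its most direct transcriptional outputs. DUSP6 probe set 208891_at read 9.20 with hairpin 2 and 8.54 with hairpin 5, against 8.80 in the control. The other 2 probe sets read 8.11 and 7.28, against 7.72 (208892_s_at), and 7.87 and 7.10, against 7.15 (208893_s_at). Each lay above the control with hairpin 2, with differences of 0.40, 0.39 and 0.72, and below it with hairpin 5, with differences of −0.26, −0.45 and −0.05. Hairpin 2 exceeded hairpin 5 by 1.58-fold to 1.79-fold. As the mean of its probe sets, DUSP4 differed from the control by 0.36 with hairpin 2 and −0.62 with hairpin 5, and DUSP6 by 0.51 and −0.25.

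PHLDA1 was divided between its probe sets. The pair with the highest signal was lower with both hairpins: 217996_at read 9.51 with hairpin 2 and 9.63 with hairpin 5, against 9.76 in the control, and 217997_at read 9.21 with each hairpin, against 9.68. Probe set 217997_at had a mean difference of −0.47 (95% interval of the limma fit −0.89 to −0.05, unadjusted p = 0.0380, adjusted p = 0.9998). The other 4 had the order of DUSP4 and DUSP6. On 225842_at the levels were 9.19 with hairpin 2 and 7.95 with hairpin 5, against 8.54, and on 217999_s_at they were 6.41 and 5.48, against 5.63. On 217998_at they were 4.47 and 3.42, against 3.60. The last, 218000_s_at, was 0.32 above the control with hairpin 2 and level with it with hairpin 5 (−0.003). The direction of PHLDA1 therefore depended on the probe set, and its mean over all 6 differed by 0.31 with hairpin 2 and −0.26 with hairpin 5.

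**Figure D2:**
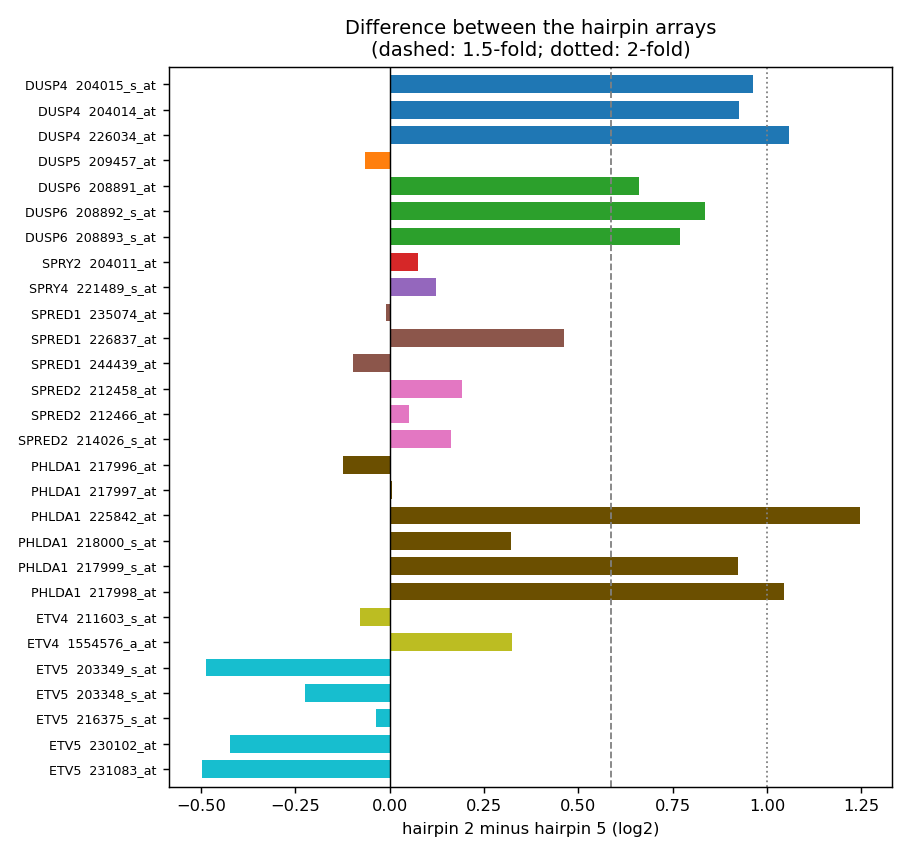
Hairpin 2 minus hairpin 5 (log2, horizontal axis) for each of the 28 probe sets, named by gene and probe set, with lines at 1.5-fold (dashed) and 2-fold (dotted). The 9 bars beyond 1.5-fold all point to hairpin 2 and belong to DUSP4, DUSP6 and PHLDA1, and all 5 ETV5 bars point to hairpin 5.

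Between the 2 hairpin arrays, 9 of the 28 probe sets were at least 1.5-fold higher with hairpin 2, where 4.82% of all probe sets were, and 7.96% of those at or above the 40th percentile in mean level, as 25 of the 28 are. These were all 3 of DUSP4, all 3 of DUSP6 and 3 of PHLDA1. At 2-fold there were 3, where 1.14% of all probe sets and 1.9% of those at that level were: 226034_at of DUSP4, and 225842_at and 217998_at of PHLDA1. No member was 1.5-fold lower with hairpin 2 than with hairpin 5, as 1.55% of all probe sets were. The 9 probe sets belong to 3 genes and are not independent. At the probe set of highest mean, hairpin 2 minus hairpin 5 was 0.96 for DUSP4, 0.66 for DUSP6 and −0.12 for PHLDA1. Each side of this comparison is a single array, so it has no replicate and no test. IFIT1, which was 6.79 above the control with hairpin 2 and 2.19 above it with hairpin 5, was likewise higher with hairpin 2, and its part in these differences was not tested. UHRF1 also differed more from the control with hairpin 2 (−2.35) than with hairpin 5 (−1.88), and the part of the degree of depletion was not tested.

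The inhibitors that act above ERK differed little. SPRY4 (221489_s_at) read 6.00 with hairpin 2 and 5.88 with hairpin 5, against 6.19 in the control. Both hairpin arrays were lower, and the mean difference was −0.25 ± 0.09 (SD, n = 2 hairpins), with a 95% interval from the limma fit of −0.71 to 0.20. SPRY2 (204011_at) read 3.64 and 3.57 with the hairpins, against 3.52 in the control, a level that 4 of 17 markers of leukocytes, fibroblasts, endothelium and neurons exceeded. Its 95% interval ran from −0.36 to 0.52. A signal this low may be partly background, so the interval may not bound a change in SPRY2 RNA. SPRY2 and SPRY4 encode Sprouty proteins, which interfere with the activation of RAS and RAF downstream of receptors.

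SPRED1 and SPRED2 encode Sprouty-related proteins of the plasma membrane, and SPRED1 brings the RAS inactivator neurofibromin to it. The SPRED1 probe set with the highest signal, 235074_at, read 4.98 with hairpin 2 and 4.99 with hairpin 5, against 4.86. The 3 arrays lay within 0.13 of each other on this probe set. On 226837_at the gene read 4.05 and 3.59, against 3.73, and 244439_at stayed between 2.44 and 2.54 on all arrays. SPRED2 read 6.57 with hairpin 2 and 6.38 with hairpin 5, against 6.54, on 212458_at, with a 95% interval of −0.55 to 0.43. Its other probe sets read 2.72 and 2.67, against 2.51 (212466_at), and 2.58 and 2.42, against 2.64 (214026_s_at), and were among the 3 member probe sets whose mean lay under the 40th percentile of all probe sets (2.79).

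The 2 PEA3-subfamily ETS factors lay on opposite sides of the control on their probe sets with the highest signal. ETV5 on its probe set with the highest signal (203349_s_at) read 6.88 with hairpin 2 and 7.37 with hairpin 5, against 7.62 in the control. Both hairpins were below the control, by 1.67-fold and by 1.19-fold, and ETV5 averaged −0.50 ± 0.35 (SD, n = 2 hairpins), with a 95% interval of −1.26 to 0.27. The remaining ETV5 probe sets lay between 2.47 and 3.57 on all arrays, and 2 of these 4 were lower and 2 higher with both hairpins. As the mean of its 5 probe sets, ETV5 differed by −0.27 with hairpin 2 and 0.07 with hairpin 5, −0.10 on average. The size of the difference therefore depended on 203349_s_at. With hairpin 5, 203348_s_at (−0.06) and 231083_at (−0.05) were also slightly lower, while 216375_s_at (0.19) and 230102_at (0.50) were higher. ETV4 was higher with both: 211603_s_at read 5.69 with hairpin 2 and 5.77 with hairpin 5, against 5.54, and 1554576_a_at read 4.82 and 4.50, against 4.36. The mean differences of ETV4 were 0.18 ± 0.06 and 0.31 ± 0.23 (SD, n = 2 hairpins each). Neither gene passed limma (unadjusted p = 0.144 for ETV5 on 203349_s_at, and 0.297 and 0.222 for ETV4).

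**Figure D3:**
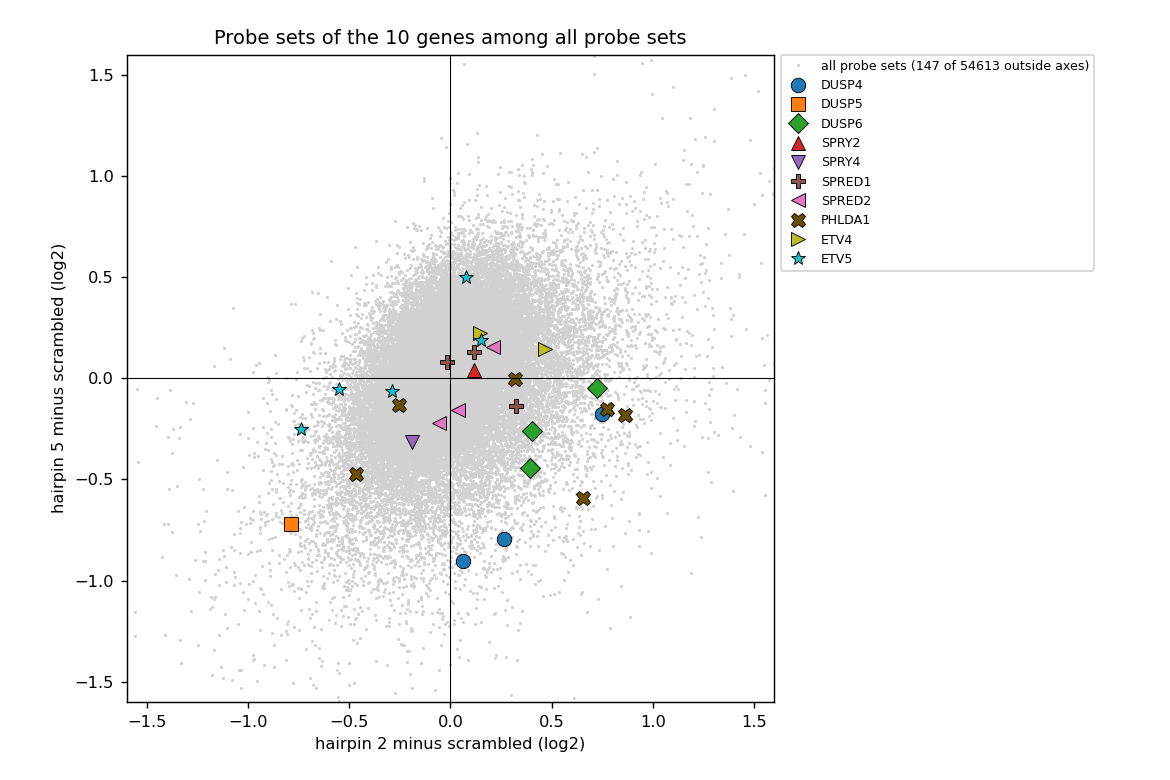
Difference from the scrambled control with hairpin 2 (horizontal) and hairpin 5 (vertical), log2, for the 28 probe sets (coloured by gene) over all 54613 probe sets (grey, those beyond the axes not drawn). DUSP5 lies in the lower left, and the probe sets of DUSP4 and DUSP6 with 4 of PHLDA1 lie in the lower right; both differences share the control array, so the slope of the grey cloud is partly set by it.

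RefSeq promoters were available for 6 of the 10 genes, and those of 3 are shown because the genes represent the patterns above: DUSP6 and PHLDA1, highest with hairpin 2 and lowest with hairpin 5 on most probe sets, and SPRY4, lower with both. Each is the 250 bases before the RefSeq start in GRCh38.p14, written 5′ to 3′ on the gene's strand, which is the minus strand for all 3. Capitals mark matches on either strand to the ETS-type letters CCGGAA and AGGAAG. The DUSP6 window is chr12:89352502-89352751, the PHLDA1 window chr12:76031777-76032026 and the SPRY4 window chr5:142324248-142324497.
DUSP6: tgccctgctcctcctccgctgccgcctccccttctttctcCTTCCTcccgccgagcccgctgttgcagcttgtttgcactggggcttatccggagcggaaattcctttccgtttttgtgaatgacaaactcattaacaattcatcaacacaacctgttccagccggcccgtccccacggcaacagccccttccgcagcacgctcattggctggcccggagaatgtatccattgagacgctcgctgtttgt
PHLDA1: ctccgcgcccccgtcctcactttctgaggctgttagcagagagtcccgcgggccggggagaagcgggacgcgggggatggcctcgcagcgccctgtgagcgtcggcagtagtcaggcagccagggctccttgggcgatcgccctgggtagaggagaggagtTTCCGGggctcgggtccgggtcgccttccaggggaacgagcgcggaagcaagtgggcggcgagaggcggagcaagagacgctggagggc
SPRY4: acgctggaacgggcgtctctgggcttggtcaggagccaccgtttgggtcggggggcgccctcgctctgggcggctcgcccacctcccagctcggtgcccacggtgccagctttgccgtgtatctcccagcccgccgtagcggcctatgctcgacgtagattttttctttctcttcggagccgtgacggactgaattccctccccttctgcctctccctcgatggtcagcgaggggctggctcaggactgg

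DUSP6 had 1 match to AGGAAG, ending 205 bases before the start when read along the gene, and PHLDA1 had 1 match to CCGGAA, ending 84 bases before it. SPRY4 had none. Over 35116 promoter windows of the same length, 14.5% held CCGGAA and 28.7% held AGGAAG. The AP-1 site TGANTCA, the CRE TGACGTCA and the CArG box were searched too, on both strands, and were in none of the 3 windows, while 6.57%, 1.65% and 1.16% of all windows held them. No 2 matches overlapped. The windows held 16 CpG dinucleotides for DUSP6, 26 for PHLDA1 and 22 for SPRY4, beside a median of 11 over all windows. Letters in a window show neither binding nor methylation, which were not measured on these arrays.

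The rest of the pathway was followed in 6 lists of 75 genes, of which the annotation named 67 with a probe set of their own. Each gene was taken at its probe set with the highest mean, and 64 of them averaged at least 2.79, the 40th percentile of all probe sets. None of the 67 passed limma over all probe sets. An unadjusted limma p under 0.05 was found for 6 (8.96%): EPHA2, ETV1, FOSL1, RASA2, RPS6KA3 and SOS2. Of all probe sets, 2.92% had such a p. The lists were chosen with earlier results of these data known. The 8.96% also counts each gene at its probe set of highest mean, whereas the 2.92% counts every probe set. These shares therefore cannot show whether the pathway lists hold an excess. Of all 14947 genes at that level, 31.2% were lower with both hairpins and 29.8% higher with both.

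Other ERK-induced genes were mostly lower. Of the 17 at that level 12 were lower with both hairpins, 1 was higher and 4 were mixed, with medians of −0.16 with hairpin 2 and −0.53 with hairpin 5, beside 0.01 and −0.02 over all genes at that level. The list was written with earlier results on some of its members known. FOSL1, an AP-1 subunit stabilised by ERK, read 6.42 with hairpin 2 and 6.22 with hairpin 5, against 7.86 in the control. EPHA2, an ephrin receptor, read 7.30 and 7.64, against 8.20, and PLAUR, the urokinase receptor, read 7.93 and 7.06, against 8.59. All 3 were below the control on both arrays, FOSL1 by more than any of the 10 output and feedback genes. The 10 genes, taken in the same way, had 4 lower, 3 higher and 3 mixed, with medians of 0.05 and −0.20. The difference between the lists was not tested.

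The cascade itself and its restraints showed no common direction. Of 13 genes between receptor and ERK, 5 lay below the control with each hairpin, 3 lay above it and 5 were mixed; the list medians were −0.01 and −0.06. The mixed genes included the receptor EGFR, at 0.84 and −0.31. EGFR was among 3 of the 13 genes that were higher with hairpin 2 and lower with hairpin 5. The exchange factors SOS1 and SOS2, which load RAS with GTP, differed by −0.24 and −0.36 and by −0.50 and −0.67, and the kinase MAP2K2, which activates ERK, by 0.50 and 0.20. SOS2 had a low signal, at 3.74 with hairpin 2 and 3.57 with hairpin 5, against 4.24, which may be partly background. Among 9 restraints of RAS and receptors, 3 were lower, 2 higher and 4 mixed. They included RASA2, a GTPase-activating protein for RAS (−0.75 and −0.71), ERRFI1, an inhibitor of EGFR (−0.91 and −0.12), and SPRED3 (0.05 and 0.51). DUSP1, EGFR and ELK4, here and below, were named after their values were seen. In each pair the first difference is for hairpin 2 and the second for hairpin 5.

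Downstream of ERK, 3 of 7 kinases that it activates were lower with both hairpins, 1 was higher and 3 were mixed. RPS6KA3, an RSK kinase, differed by −0.63 and −0.98, MKNK2, which phosphorylates the cap-binding factor of translation, by −0.22 and −0.42, and RPS6KA1 by 0.30 and 0.42. Of 7 other MAP kinase phosphatases 1 was lower, 3 higher and 3 mixed, with DUSP16 at 0.99 and 0.22, DUSP9 at 0.25 and 0.52, and DUSP7 at −0.07 and −0.34. DUSP1, an immediate early phosphatase of the mixed genes, had the array order of DUSP4 and DUSP6, at 5.93 with hairpin 2 and 4.44 with hairpin 5, against 5.13 in the control. That order held for 2 of these 7 genes, and for 21.7% of all genes at or above the 40th percentile. Of 11 transcription factors of the pathway 2 were lower, 3 higher and 6 mixed, ELK4 among these (0.47 and −0.85). The order of DUSP4 and DUSP6 held for 4 of the 11. ETV1, another PEA3-subfamily factor, was 0.79 and 0.62 higher than the control, at 5.67 and 5.51, against 4.89. ETS1 differed by −0.93 and −0.45 and ETS2 by 0.26 and 0.40. ETS1 averaged 3.24 over the arrays, below SPRY2 (3.58), so its signal may be partly background. For ETV1 the unadjusted limma p was 0.0161, with an adjusted p of 0.9998.

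**Figure D4:**
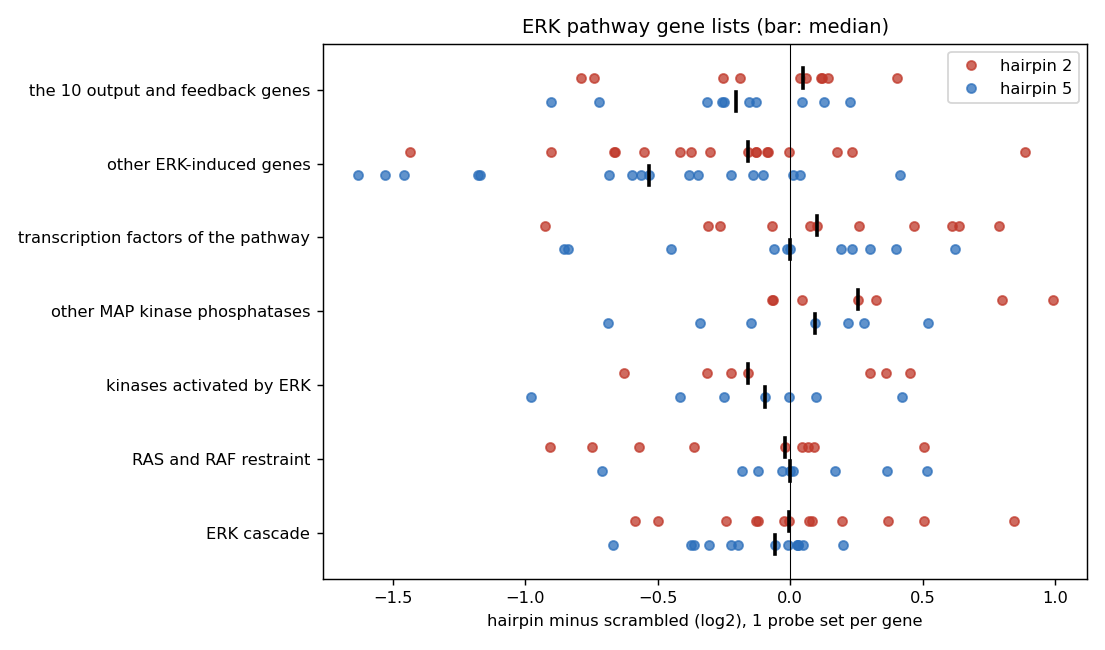
Difference from the scrambled control (log2, horizontal axis) for each gene at or above the 40th percentile, 1 probe set per gene, with hairpin 2 (red) and hairpin 5 (blue); black bars are medians of a list. The other ERK-induced genes have medians of −0.16 and −0.53, and the 10 output and feedback genes medians of 0.05 and −0.20.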

How the data were processed

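RNA of 3 HCT116 samples was labelled as biotinylated cRNA and hybridised to Affymetrix arrays. The deposited values are log2 expression values; the submitters' processing notes name RMA and Affymetrix Expression Console, without versions or settings. The log2 scale was read from the deposited values, which run from about 2 to 14, and their centring is not stated. Of 54613 probe sets, the platform annotation gave 41091 a single gene, 1801 several and 11721 none; all 28 member probe sets matched their symbol in RefSeq (GRCh38.p14) by gene identifier.

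All probe sets entered 1 two-sided limma fit (version 3.58.1 in R 4.3.3, lmFit followed by eBayes), with Benjamini-Hochberg adjustment; its total degrees of freedom were 3.63. The 2 hairpins, which share a source label, were replicates of UHRF1 depletion against 1 control. The p-values and intervals rest on the spread between hairpins, which eBayes drew toward a spread pooled over all probe sets. For DUSP5 the SD between hairpins was 0.05, and the standard error of the fit was 0.15. Hairpin, culture and array cannot be told apart in the spread between hairpins, and the lone control adds nothing to it. The smallest p that exact permutation of 3 arrays allows is 0.333. The limma step was checked on simulated arrays. The labels give no batch. Members and gene lists were chosen with earlier results of these data known. All members were named; each pathway list gave up to 3 genes at or above the 40th percentile, those on the same side of the control with both hairpins and furthest from the control on the hairpin array nearer to it, and DUSP1, EGFR, ELK4 and the genes in the closing section were chosen after their values were seen. Alternatives were other variance priors, thresholds, filters, probe set rules and normalizations, and each hairpin left out.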

Additional observations from a re-analysis of the deposited data

How the results depend on the processing

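Limma called 0 probe sets in all and 0 members under each of these settings: an intensity trend, a robust prior, an adjusted p of 0.1, only probe sets at or above the 40th percentile, 1 probe set per gene at that level, median centring and cyclic loess. Unadjusted p-values under 0.05 then numbered 354 to 2037 in all and 1 to 2 among members. The count of 8 member probe sets lower with both hairpins was 4 of 10 genes with 1 probe set per gene, 2 of 10 with probe sets averaged within genes, and 4 of 17 without probe sets whose name ends in _x_at or _s_at; fewer items were counted in each. It was 9 to 20 of 28 when the hairpins were taken singly, 20 with hairpin 5 alone. No member was 2-fold lower with both hairpins under any of the settings run, and 1, DUSP5, was 1.5-fold lower. The median difference of the members (0.05) was −0.13 with 1 probe set per gene and −0.14 with hairpin 5 alone. With the mean of its probe sets PHLDA1 changed sign and ETV5 stood at −0.10 in place of −0.50; with 1 hairpin alone, so did DUSP4, DUSP6 and SPRED2; median centring and cyclic loess changed the sign of 0 of the 10 genes. No paired analysis was possible because the labels give the arrays no shared replicate numbers.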

Other observations

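The following genes were picked from the lists of ERK-induced genes after their values were seen. EGR1, an immediate early zinc finger factor, had the array order of DUSP4 and DUSP6, at 8.87 with hairpin 2 and 6.80 with hairpin 5, against 7.98 in the control. That order held for 2 of the 17 other ERK-induced genes at or above the 40th percentile, and for 21.7% of all genes at that level. UPP1, a uridine phosphorylase, read 6.56 and 5.65, against 7.11, and MAFF, a small MAF factor, read 7.23 and 6.43, against 7.60. Both were below the control with each hairpin and lowest with hairpin 5. CCND1, the cyclin of early G1 phase, read 8.08 and 8.39, against 8.49, and MCL1, an apoptosis inhibitor, read 8.32 and 8.36, against 8.32. None of these differences passed limma over all probe sets.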
